A study of Homo sapiens with 4 samples.

Results

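PK-1 cells, a human pancreatic ductal adenocarcinoma line, were given extra genes in 2 ways, and the transcriptomes of the transiently transfected cells were compared with those of the stable retrovirally transduced cells. All 4 libraries of the series entered the comparison: the 2 transient libraries, from cells carrying a pCAG plasmid that encodes SPRR1A-FLAG or GFP, and the 2 stable libraries, from cells carrying a pMXs retroviral vector that encodes SPRR1A-FLAG or DsRed. The plasmids were delivered with the reagent Fugene HD and RNA was isolated 48 hours later, whereas the retroviruses came from packaging cells and persist in the genome of the cells they infect. Libraries were made from polyadenylated RNA with a stranded kit and read as pairs, 1 library per condition.

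The difference between the models was read in 2 pairs of libraries that share no library: the control pair (transient GFP minus stable DsRed) and the SPRR1A pair (transient SPRR1A minus stable SPRR1A). Levels are given as log2 TPM, a measure scaled by transcript length and library total in which values at or under 1 TPM appear as 0. Each pair was centred on its median over the 9663 entities that reached 5 TPM in every library. The medians subtracted were 0.13 for the control pair and -0.12 for the SPRR1A pair. An entity, the name used for a row of the gene tables, was examined if it reached a TPM of 5 in at least 1 library, which left 10758 of 53826 entities once SPRR1A was set aside. It was called higher or lower in transient cells where both centred pairs passed a 2-fold difference, that is 1 on the log2 scale, in the same direction. Each condition is 1 library, and the 2 libraries of a model carry different inserts and are not replicates of 1 condition. No test was run, so every value is a description of these libraries, and an entity far past 2-fold in both pairs is the firmest statement the data allow.

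The models differ in more than the delivery. The vector backbone and its promoter, the control insert, the reagent and the time in culture all change together with the label transient or stable. Their parts in any difference cannot be told apart. Whether the libraries of the 2 models were harvested, prepared or sequenced together is not given in the sources used here. The samples are bulk RNA, so a small difference in all cells and a large one in the cells that took up a plasmid cannot be told apart either. GFP and DsRed are not human genes and were not among the listed entities, so the control labels could not be checked from the tables. SPRR1A itself could be checked. Its log2 TPM was 0.75 in stable DsRed, 10.93 in stable SPRR1A, 3.56 in transient GFP and 16.60 in transient SPRR1A cells, and in the last of these libraries it took 9.90% of all transcripts against 0.196% in stable SPRR1A cells. Keratins of ductal epithelium were abundant in all 4 libraries (KRT18 between 12.36 and 12.94), with MUC1 at 0.90 or below, and the 11 markers of endocrine, endothelial and leukocyte cells were all listed at 0. The defining acinar and fibroblast markers were at 0 as well, except PRSS1, at 1.86 or below, and COL1A1, at 2.62 or below. A listed 0 does not show that a gene is silent, since the 15 mitochondrially encoded genes of 1 list, which cells with mitochondria use, were also listed at 0 in all libraries.

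Introducing DNA into a cell is known to touch several systems. Nucleic acids in the cytosol are read by sensors of the RIG-I and cGAS-STING pathways, which act through IRF3 and NF-kB to switch on interferon-stimulated genes and cytokines. Separate systems, among them the integrated stress response, the sterol-sensing SREBP pathway and autophagy, respond to altered translation, lipids and membranes. Genes of these systems were read from lists of members, beside lists for housekeeping functions, and their values are given as measured, without a claim about what set them.

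Transient cells were set apart mainly by higher entities: 246 of the 10758 examined (2.29%) were higher in both pairs and 27 (0.251%) were lower in both. Every count of called list members below stands beside these shares. Counts of members above or below 0 in both pairs stand beside 4554 and 4111 of all 10758 examined entities. The higher share fell from 5.54% in the lowest quartile of mean level to 0.706% in the highest. In the control pair alone, 457 entities (4.25%) were higher and 68 (0.632%) lower. The SPRR1A pair alone held 297 higher (2.76%) and 49 lower (0.455%). The shared higher entities made up 53.8% of those in the control pair and 82.8% of those in the SPRR1A pair, and the shared lower ones 39.7% and 55.1%. Across the 9663 entities of the centre, the differences in the 2 pairs had a Pearson correlation of 0.83 and a Spearman correlation of 0.80, a description across genes, which are not independent of each other.

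**Figure D1:**
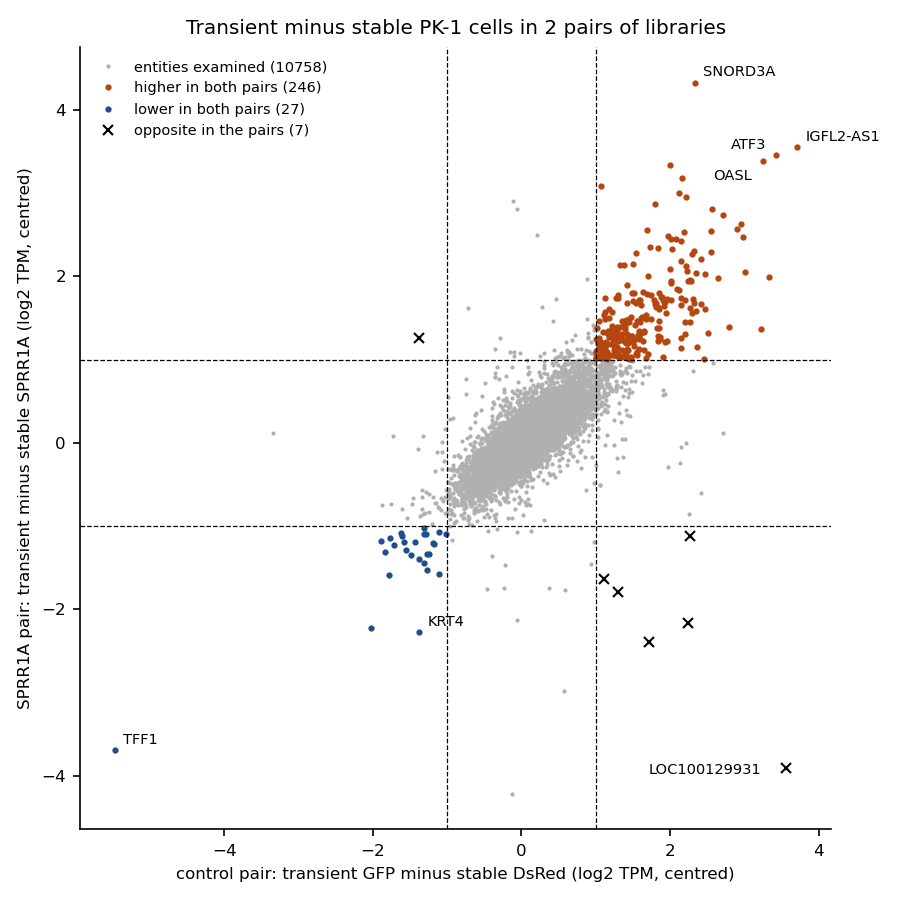
Each point is 1 entity, with the control pair on the horizontal axis and the SPRR1A pair on the vertical axis, both as centred differences in log2 TPM, and dashed lines mark 2-fold. The 246 higher entities fill the upper right corner, the 27 lower entities the lower left, and 7 entities lie past 2-fold in opposite directions.

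The difference between models was wider than the difference between inserts. Over the same 9663 entities the SD was 0.42 in the control pair and 0.35 in the SPRR1A pair, against 0.17 for SPRR1A minus DsRed within stable cells and 0.13 for SPRR1A minus GFP within transient cells. Past 2-fold in either direction stood 525 examined entities in the control pair and 346 in the SPRR1A pair, and 49 and 36 within the stable and transient models. Among the 246 higher entities, the median distance between the 2 stable libraries was 0.25 and that between the 2 transient libraries 0.18. Their median difference between models was 1.47, which the calling rule holds above 1, so it adds no support. The entities nearest the threshold were PPP4R1L, whose smaller pair difference was 1.004, on the inside, and PIP4K2C, at 0.998, on the outside. For lower entities FLRT2 at 1.02 was the nearest inside and PRICKLE1 at 0.98 the nearest outside.

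The called entities were mostly of low to moderate level. Their median mean level was 3.03 for the higher and 2.90 for the lower, against 4.63 for all examined entities. TPM reached 5 in all 4 libraries for 114 of the 246 higher and 10 of the 27 lower. The others include entities examined only through the model in which they are high. The filter favours their call, and with it the counts and medians of lists that hold them. At least 1 stable library was at the floor for 19 of the higher, and at least 1 transient library for 2 of the lower, and the differences of these understate the distance in TPM. Protein-coding genes made up 82.9% of the higher entities (204) and 93.5% of all examined, and lncRNAs 6.50% (16) and 3.10%. Small RNAs recognised by name made up 16 of the higher and 6 of the lower, and 2 of the higher were read-through entities, which span neighbouring genes.

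IGFL2-AS1, a long noncoding RNA antisense to the growth-factor-like gene IGFL2, showed the largest difference among the higher entities other than small RNAs. Its log2 TPM was 0.76 in stable DsRed, 1.09 in stable SPRR1A, 4.59 in transient GFP and 4.52 in transient SPRR1A cells, a 12.4-fold mean difference. ATF3, a stress-induced bZIP transcription factor on chromosome 1 (chr1:212565407-212620777, GRCh38), followed with 2.64 and 2.73 in the stable cells and 6.19 and 6.06 in the transient cells, 10.9-fold higher. After centring, the libraries of the 2 models did not overlap in any of the 246 higher entities, which the calling rule favours.

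OASL, an interferon-induced relative of the oligoadenylate synthetases (chr12:121017761-121039246), read 4.16 and 4.18 in stable and 7.53 and 7.45 in transient cells, a 9.95-fold difference. IFIT2, which binds RNA and restrains translation in infected cells, was 6.95-fold higher, from 4.22 and 4.56 to 7.31 and 7.07. DDX60, a helicase of the antiviral response, was 6.67-fold higher, from 2.27 and 2.37 to 5.30 and 4.82. These 3 genes had the largest differences of the interferon-stimulated list.

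CREBRF, a regulator of the CREB3 family of endoplasmic reticulum stress factors, was listed at 0 in both stable libraries and at 2.83 and 2.62 in the transient ones. TCP11L2 had the stable DsRed library at 0 and stable SPRR1A at 0.50, and reached 3.10 in transient GFP and 2.84 in transient SPRR1A cells. No fold is given for these genes, since a value at the floor sets no ratio.

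**Figure D2:**
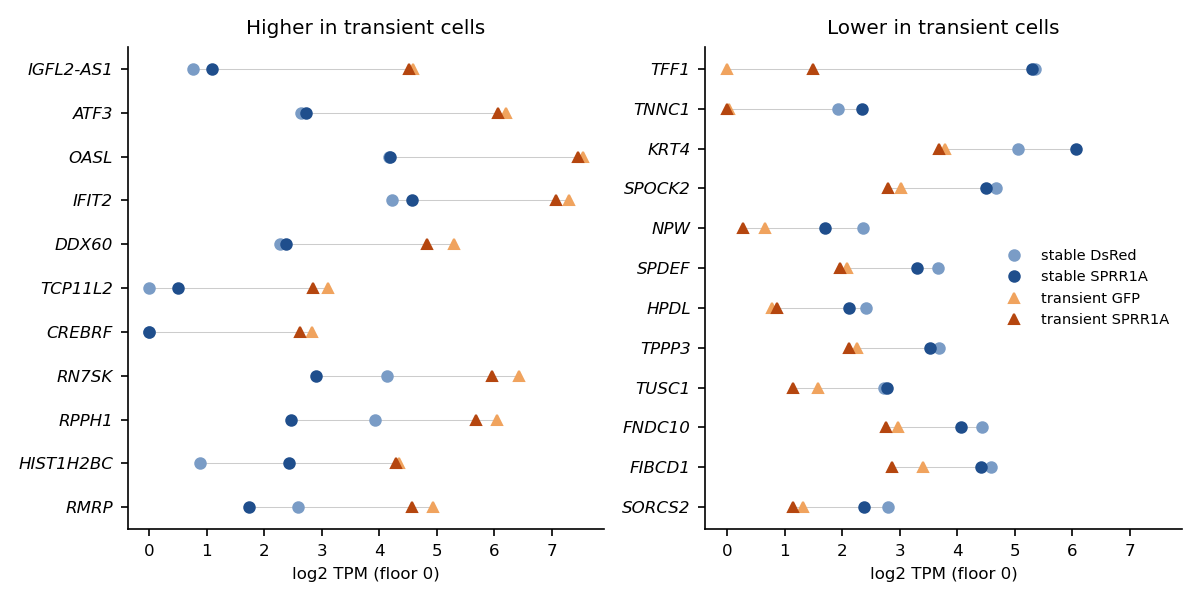
Log2 TPM in each of the 4 libraries for 11 of the 12 entities with the largest mean difference on the higher side and all 12 on the lower side, circles for stable and triangles for transient cells. For each entity shown the stable and the transient symbols do not overlap, which the calling rule favours. TFF1 lies above 5 in stable and at 1.49 or below in transient cells.

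Among the higher entities, those with the highest levels were ISG15, IL1B, TXNIP, SAT1 and SPRR1B. ISG15, a ubiquitin-like interferon-induced protein, read 8.08 and 7.94 in stable and 9.62 and 9.51 in transient cells. IL1B, a proinflammatory cytokine, went from 6.66 and 7.06 to 8.26 and 8.23, a 2.60-fold mean difference. SAT1, which acetylates spermine and spermidine, was 3.32-fold higher, with 6.35 and 6.63 against 8.31 and 8.14. TXNIP, an inhibitor of thioredoxin and of glucose uptake, was 2.31-fold higher.

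SPRR1B, the closest relative of SPRR1A and a precursor of the cornified envelope, read 6.55 in stable DsRed, 6.50 in stable SPRR1A, 8.27 in transient GFP and 8.10 in transient SPRR1A cells. Both transient libraries lay above both stable ones, with and without the SPRR1A insert, which the call in both pairs favours. Reads of such similar genes can be split between them, and whether that part differs between libraries was not tested. Of the 9 cornified envelope genes examined, SPRR1B alone was called, and SPRR3 (-0.40 and 0.33) and PPL (-0.01 and 0.09 in the control and SPRR1A pair) lay near 0.

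Interferon-stimulated genes were the antiviral group with the most called members. Of 33 listed genes 25 were examined, and 11 of these were higher in both pairs, none lower, beside 2.29% and 0.251% of all examined entities. The median difference of the 25 was 0.88 in the control pair and 0.60 in the SPRR1A pair, where all examined entities had 0.02 and 0.01. Besides OASL, IFIT2, DDX60 and ISG15, the called members were HERC5, OAS2, ISG20, IFIT3, IFIT1, IFI44 and HERC6. Some members, HERC5 and OAS2 among them, reached 5 TPM only in transient libraries, so the filter favours higher counts and medians.

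HERC5, the ligase that attaches ISG15 to new proteins, read 1.52 and 1.67 in stable and 4.20 and 3.84 in transient cells. Its neighbour on chromosome 4, HERC6, had smaller differences of 1.09 and 1.11. IFIT3 went from 4.93 and 4.91 to 7.20 and 6.98, and IFIT1 from 3.18 and 3.38 to 5.40 and 5.11. IFIT2, IFIT3, IFIT1 and IFIT5 lie side by side on chromosome 10 (from chr10:89302046-89309271 for IFIT2 to chr10:89414568-89420997 for IFIT5), yet IFIT5, with 3.24 and 3.48 in stable and 3.48 and 3.16 in transient cells, did not separate the models.

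Other members of the list stayed near 0. IFI35 differed by -0.10 and 0.25, OAS1 by -0.25 and 0.02, and BST2, a membrane protein that tethers virions, by -0.20 and -0.12. MX1, MX2 and CMPK2 were listed at 0 in all 4 libraries.

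Of the interferon genes, IFNB1, IFNA1, IFNL2 and IFNL3 were listed at 0 in all libraries and IFNL1 reached at most 0.29. As with the mitochondrial genes, a listed 0 says no more than that no level above the floor was given. None of the 15 examined ligands, receptors and transducers was called in either direction, with medians of 0.20 and 0.38. IRF9, a DNA-binding subunit of the complex that type I interferon receptors activate, had the largest mean of both pairs (0.98 and 0.56). In the SPRR1A pair IRF7 (0.62) and IFNLR1 (0.61) lay above it. IRF3 (-0.05 and -0.01) and the receptor chain IL10RB (-0.02 and -0.03) lay at 0.

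Sensors of nucleic acids held 3 higher members of 15 examined. DDX58, which encodes RIG-I, read 2.60 and 2.63 in stable and 4.11 and 3.89 in transient cells. DHX58, its regulator LGP2, went from 2.12 and 1.85 to 3.46 and 3.30, and IFIH1, the long-RNA sensor MDA5, from 2.75 and 2.89 to 4.18 and 3.84. These are the 3 RIG-I-like receptors, and all 3 are themselves interferon-inducible. The DNA sensors cGAS, listed as MB21D1 (0.66 and 0.40), and STING, listed as TMEM173 (0.65 and 0.45), did not pass 2-fold, and the adaptor MAVS stood at 0.00 and 0.10.

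NF-kB-driven cytokines and regulators had 9 higher members of 19 examined, none lower, and the highest median of the signalling lists at 0.91 in both pairs. CSF2, CXCL8, IL32 and BIRC3, all called, reached 5 TPM only in transient libraries, so the filter favours higher counts and medians. CSF2, the growth factor GM-CSF, went from 1.02 and 1.34 to 3.14 and 3.31. CXCL8, a neutrophil chemokine, went from 0.98 and 1.54 to 3.30 and 3.14. IL32, a proinflammatory cytokine, read 0.36 and 1.57 in stable cells, a wider gap than between its transient values of 2.64 and 2.58.

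TNFAIP3, the deubiquitinase A20 that limits NF-kB signalling, was higher too, with 4.45 and 4.64 against 6.26 and 6.05. IL1A, IL1B, BIRC3, CCL5 and CXCL2 completed the called members. In contrast, NFKB1 (-0.14 in both pairs), IL18 (-0.11 and -0.03) and TNFAIP2 (0.10 and 0.03) did not separate the models, and TNF, CXCL1, CXCL10 and CCL2 were listed at 0 throughout. Antigen presentation by MHC class I, another interferon-responsive system, had no called member among 17 examined.

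Promoter windows were searched for the short sequences that the factors of these systems are known to bind. RefSeq windows of 250 bases before to 50 after 1 start of a gene (GRCh38.p14) were at hand for 27305 genes and for 153 of the 246 higher and 14 of the 27 lower entities. The core of the interferon-stimulated response element, GAAANNGAAA on either strand, was in 15 of the 153 (9.80%), against 4.38% of all genes with a window and 3.73% of those examined. Of the called interferon-stimulated genes 8 had a window and 7 of these held the core. The list's examined genes held it in 15 of 20, OAS3, BST2 and IFIT5 included, so its presence did not separate the called genes from the others. A match is a description of letters and not of a bound site.

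The stretches that hold the core are shown for 4 of these genes to let the reader see its spacing, with the core in capitals. The stretches of IFIT1 and ISG15 lie before the listed gene, whereas those of DDX60 and ISG20 lie inside it, before the start that RefSeq's window uses and downstream of the outermost one. In ISG15 a pair of matches overlap, and IFIT1 and DDX60 have 2 separate matches. They come from chr10:89392487-89392549 (plus strand) for IFIT1, chr1:1013364-1013419 (plus) for ISG15, chr4:168318776-168318860 (minus) for DDX60 and chr15:88638927-88638976 (plus) for ISG20.
IFIT1: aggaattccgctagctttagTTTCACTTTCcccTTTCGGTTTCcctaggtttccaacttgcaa
ISG15: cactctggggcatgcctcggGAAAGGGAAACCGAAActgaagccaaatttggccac
DDX60: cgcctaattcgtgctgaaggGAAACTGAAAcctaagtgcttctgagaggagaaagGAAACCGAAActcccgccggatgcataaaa
ISG20: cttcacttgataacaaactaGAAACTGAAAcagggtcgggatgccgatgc

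The NF-kB sequence GGGANTTTCC was in 7 of the 153 higher genes with a window (4.58%), 0.678% of all genes and 0.732% of the examined ones. It was in the windows of CXCL2, IL32 and TNFAIP3 among 8 called list members with a window, and also in NFKB1, NFKB2 and NFKBIA, which were not called. The stretches of CXCL2 (chr4:74099244-74099293, minus strand) and TNFAIP3 (chr6:137867172-137867221, plus) are shown with the match in capitals, and the TNFAIP3 stretch also lies inside the listed gene.
CXCL2: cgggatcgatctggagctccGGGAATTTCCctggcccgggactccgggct
TNFAIP3: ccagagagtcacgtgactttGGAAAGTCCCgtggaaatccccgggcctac

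The integrated stress response had 5 higher members of 19 examined, none lower, with medians of 0.36 and 0.30. After ATF3 came DDIT3, the proapoptotic factor CHOP, with 5.05 and 5.41 in stable and 6.98 and 6.96 in transient cells. CTH, an enzyme that makes cysteine, went from 1.80 and 2.12 to 3.53 and 3.45. CHAC1, which degrades glutathione, went from 3.12 and 3.55 to 4.80 and 4.49, and SESN2, a leucine sensor upstream of mTORC1, was the last of the called members.

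Apart from CTH, no amino acid synthesis or transport gene of the list passed 2-fold in both pairs. The cystine transporter SLC7A11 had the largest values of these at 0.82 and 0.59, and PSPH, of serine synthesis, stood at 0.40 and 0.25. SLC7A5 differed by -0.01 and 0.02, PHGDH by -0.06 and -0.05, ASNS by 0.21 and 0.24 and the transcript of ATF4 by -0.26 and 0.08. The C/EBP-ATF response element TGATGNAA, the sequence that ATF4 dimers are known to bind, was in the windows of ATF3 and CHAC1 among 5 called members, and in those of ASNS and SLC3A2, which were not called. It was in 6.54% of the higher genes with a window, 4.46% of all and 2.63% of the examined genes. The ATF3 stretch lies at chr1:212565196-212565243 and the CHAC1 stretch at chr15:40953242-40953289, both on the plus strand.
ATF3: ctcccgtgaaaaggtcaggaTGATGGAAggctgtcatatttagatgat
CHAC1: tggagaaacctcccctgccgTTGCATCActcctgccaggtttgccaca

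The unfolded protein response, which adjusts the folding capacity of the endoplasmic reticulum, had 3 higher members of 19, beside 2.29% of all examined entities. DNAJB9, a chaperone induced through XBP1, went from 2.71 and 2.90 to 4.51 and 4.27, and HERPUD1, a part of the degradation machinery, from 5.59 and 5.70 to 7.04 and 6.98. The sensor ERN1 read 0.71 and 1.45 in stable and 2.67 and 2.61 in transient cells. HSPA5, the abundant chaperone BiP, lay below 2-fold at 0.86 and 0.76, and CALR and PDIA3 near 0. Heat shock chaperones of the cytosol and mitochondria, with their regulators, had no called member among 18 and medians of 0.01 and -0.01. Their values ran from HSPE1, a mitochondrial chaperonin, at -0.70 and -0.52 to DNAJB4 at 1.25 and 0.83, with HSPA9 at -0.02 and -0.01.

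Most genes of cholesterol synthesis and uptake had higher values in transient cells. All 24 listed genes were examined, 20 were above 0 in both pairs and 1 below, and 4 passed 2-fold in both. The medians were 0.71 and 0.65. INSIG1, which retains the SREBP complex in the endoplasmic reticulum, went from 2.43 and 2.55 to 4.37 and 4.11. MSMO1, a demethylating enzyme late in the pathway, differed by 1.29 and 1.11.

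HMGCS1 lay below the threshold at 1.08 and 0.88, and IDI1 just below it at 1.19 and 0.997. FDPS and NSDHL stood at 0.00 in the control pair and at 0.19 and 0.18 in the SPRR1A pair, and PMVK was the gene below 0 in both, at -0.98 and -0.55. Fatty acid synthesis, which shares SREBP control, had no called member among 11 examined and medians of 0.33 and 0.21. The sterol regulatory element core TCACNCCAC was in none of the 2 called genes with a window, INSIG1 and MSMO1.

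Autophagy and lysosomal genes had 5 higher members of 28 examined, none lower, with medians of 0.39 and 0.41. GABARAPL1 and MAP1LC3B encode proteins that are attached to the membrane of the autophagosome. GABARAPL1 went from 3.68 and 3.87 to 5.82 and 5.67, and MAP1LC3B from 4.94 and 5.36 to 6.72 and 6.58. The lysosomal sialidase NEU1, the phosphoinositide-binding WIPI1 and the initiating kinase ULK1 were called with differences between 1.08 and 1.13. MAP1LC3B2, a near copy of MAP1LC3B, was higher as well and may share reads with it. CTSB (-0.04 and -0.03) and ATG7 (-0.07 and 0.15) did not separate the models.

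All 15 examined genes of the hypoxia response were above 0 in both pairs, beside 4554 of all 10758 examined entities. Of the 15 genes, 5 passed 2-fold in both. HIF1A, the oxygen-regulated transcription factor itself, had the highest level, with 6.49 and 6.79 in stable and 8.19 and 7.93 in transient cells. NDRG1 went from 4.21 and 4.16 to 5.96 and 5.86, VEGFA from 5.10 and 5.17 to 6.47 and 6.34, and the demethylase KDM3A from 3.02 and 3.11 to 4.44 and 4.34. CA12, a carbonic anhydrase, was listed at 0 in stable DsRed cells. CA12, EGLN3 and PDK1 reached 5 TPM only in transient libraries, so the filter favours higher counts and medians of this list. EPAS1, which encodes HIF-2 alpha, stood at 0.12 and 0.01, and the glycolytic enzymes, several of them HIF targets, had no called member of 21, with medians of 0.07 and 0.10.

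Immediate early genes, switched on within minutes of growth factor or stress signals, had 6 higher members of 27. EGR1 went from 3.07 and 3.04 to 5.32 and 4.76 and FOSB from 2.08 and 2.54 to 4.16 and 3.98. FOS, a partner of JUN in AP-1, read at most 1.55 in stable and 3.33 and 3.42 in transient cells. DUSP1, a phosphatase of MAP kinases, KLF4 and KLF10 were the other called members. Feedback genes of the ERK pathway gave DUSP4 at -0.11 and -0.02, ETV4 at -0.03 and 0.07 and DUSP6 at -0.18 and -0.25. HBEGF, an EGF receptor ligand, was the called member of its family of 12, with 5.77 and 5.80 against 6.99 and 6.87, while TGFA stood at 0.16 and 0.02.

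Of 15 p53 targets examined, 3 were higher: BBC3, the proapoptotic PUMA (2.41 and 2.48 against 3.94 and 3.83), GADD45A (6.70 and 6.63 against 8.07 and 7.86) and the cell cycle inhibitor CDKN1A (4.75 and 4.93 against 6.15 and 5.96). MDM2, a direct p53 target, differed by 0.51 and 0.42, and BAX by -0.31 and -0.11. The NRF2 list of antioxidant genes had 2 called members of 23, a count too small to read beside 2.29% of all examined entities. Its medians were 0.38 and 0.42, with 17 of the 23 above 0 in both pairs and 4 below 0 in both. AKR1C1, an aldo-keto reductase with close paralogs, went from 4.20 and 4.11 to 6.36 and 6.32, and HMOX1, which breaks down haem, from 4.39 and 3.98 to 5.56 and 5.33, with NQO1 at 0.38 and 0.28.

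Genes of DNA replication lay slightly below 0. None of 31 examined passed 2-fold, yet 28 were below 0 in both pairs and none above 0 in both, with medians of -0.21 and -0.24. Many of these genes lie in the highest quartile of mean level, where all examined entities had medians of -0.14 and -0.07. GINS2 had the lowest values at -0.72 and -0.64, and TYMS and PCNA were at -0.65 and -0.44 and at -0.39 and -0.34. Mitotic genes had medians of -0.03 and -0.16, and the median of the control pair turns positive with no centring and with centring by level.

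Cytoplasmic ribosomal proteins and subunits of oxidative phosphorylation also had medians below 0 in both pairs. Of 80 ribosomal protein genes 61 were below 0 in both pairs, with medians of -0.34 and -0.12, and of 79 respiratory chain genes 58, with medians of -0.27 and -0.13. None was called. Centring within bins of level brought these medians to -0.13 and -0.05 and to -0.12 and -0.06. The 16 reference genes had medians of -0.09 and -0.05, and RPLP0 stood at -0.07 and 0.10.

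**Figure D3:**
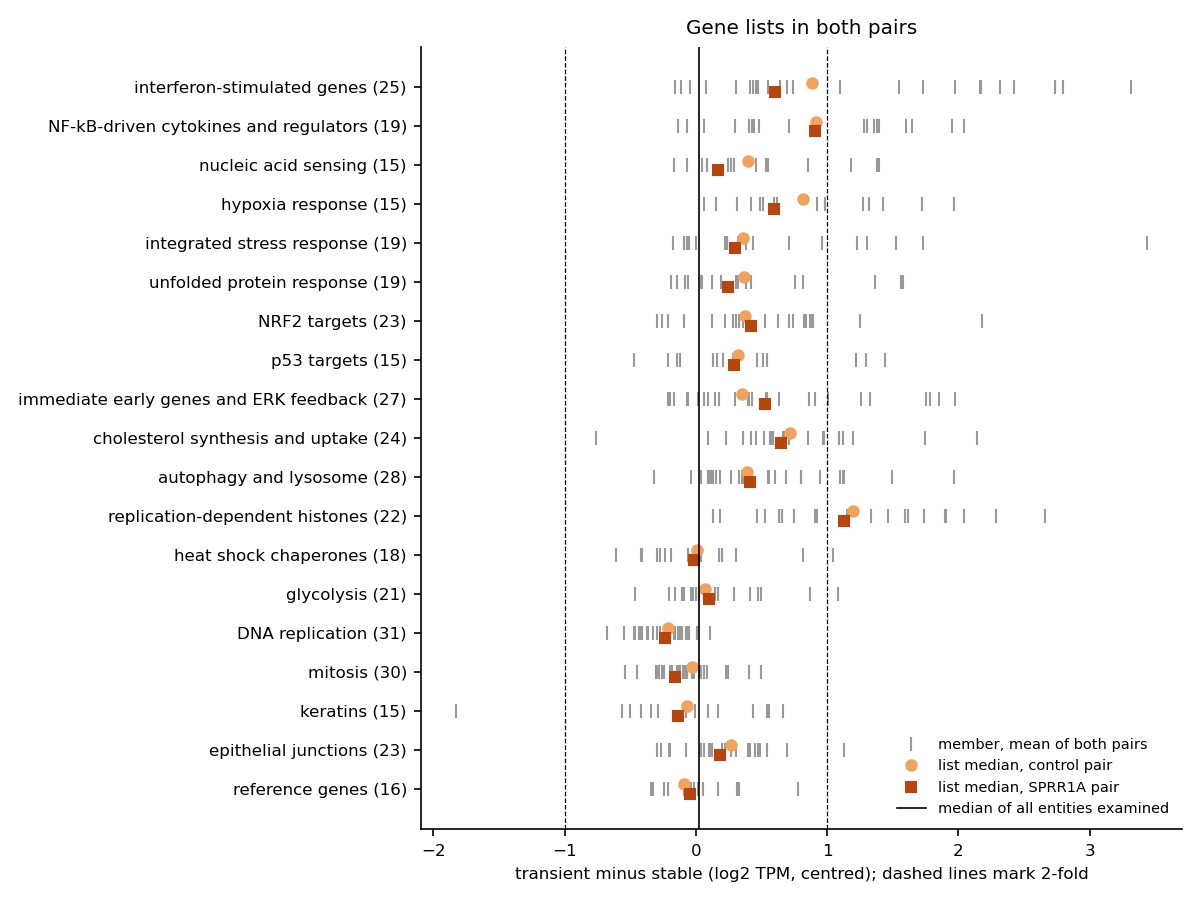
Transient minus stable differences in log2 TPM for 19 gene lists, with the number of examined genes in brackets. Grey ticks are members as the mean of both pairs, circles and squares the list medians in the control and the SPRR1A pair, and the solid line the median of all entities examined at 0.02. Interferon-stimulated, NF-kB, hypoxia, cholesterol and histone lists have medians of 0.60 or more in both pairs, and DNA replication sits at -0.21 and -0.24.

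Histone genes expressed with replication were higher together, in the opposite direction to the replication genes. Of 22 examined 21 were above 0 in both pairs and 12 passed 2-fold, with medians of 1.20 and 1.13. Several, HIST1H4H and HIST1H3D among them, reached 5 TPM only in transient libraries, so the filter favours higher counts and medians. HIST1H2BC read 0.89 and 2.42 in stable and 4.34 and 4.29 in transient cells. HIST1H3D went from 0.32 and 0.29 to 2.60 in both transient libraries, and HIST1H4H from 1.83 and 1.60 to 3.69 and 3.83. HIST1H1C and HIST1H2BK, the members with the smallest differences, stood at -0.13 and 0.39 and at 0.30 and 0.07.

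The mRNAs of most such histones end in a stem-loop without a poly(A) tail, and the libraries were made by poly(A) selection. Structural noncoding RNAs, which also lack a tail, were higher with them, unlike small nucleolar and Cajal body RNAs, which did not move as one. Among the RNU small nuclear RNAs, RNU6-2 and RNU6ATAC were called, and RNU6-1 (2.31 and 0.86) and RNU6-9 (1.66 and 0.91) were not. RNU2-1 (-0.11 and 2.90) and RNU6-8 (2.14 and -0.24) changed sign between the pairs. All of these but RNU2-1 reached 5 TPM only in transient libraries. All 6 examined structural noncoding RNAs were called: RN7SK, which holds the elongation factor P-TEFb inactive, RMRP and RPPH1, the RNAs of the RNase MRP and RNase P enzymes, and RN7SL1, RN7SL2 and RN7SL3, the RNA of the signal recognition particle and its near copies. RN7SK read 4.13 and 2.89 in stable and 6.42 and 5.95 in transient cells, RPPH1 3.92 and 2.46 against 6.04 and 5.68, and RMRP 2.58 and 1.72 against 4.93 and 4.56.

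In each of the 6 the stable SPRR1A library was lower than the stable DsRed library, so the SPRR1A pair showed the larger difference. Their summed TPM was 172 in stable DsRed, 85.6 in stable SPRR1A, 668 in transient GFP and 559 in transient SPRR1A cells. The summed TPM of the histone genes was 284 and 325 in stable and 560 and 499 in transient cells. How completely tailed RNA was selected in each library is not known, and its part in the higher histone and structural RNA values was not tested. Leaving out all histones, structural RNAs and small RNAs left 212 higher and 21 lower entities.

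Small nucleolar and Cajal body RNAs did not move as one. Of 133 examined 11 were higher and 4 lower in both pairs, beside 2.29% and 0.251% of all examined entities. The medians were 0.08 and 0.22. SNORD3A, the U3 RNA of ribosomal RNA processing, had the largest values at 2.91 and 1.44 in stable and 5.37 and 5.64 in transient cells. SNORD141B, SNORA24, SNORA25 and SNORD58A were lower, among them SNORA25 with 4.61 and 4.32 against 3.11 and 3.12. Of 30 entities that RefSeq classes as microRNA 3 were higher (MIR221, MIR1204 and MIR324) and 2 lower (MIR3654 and MIR4292), and TPM of such short entities rests on few reads for each base.

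**Figure D4:**
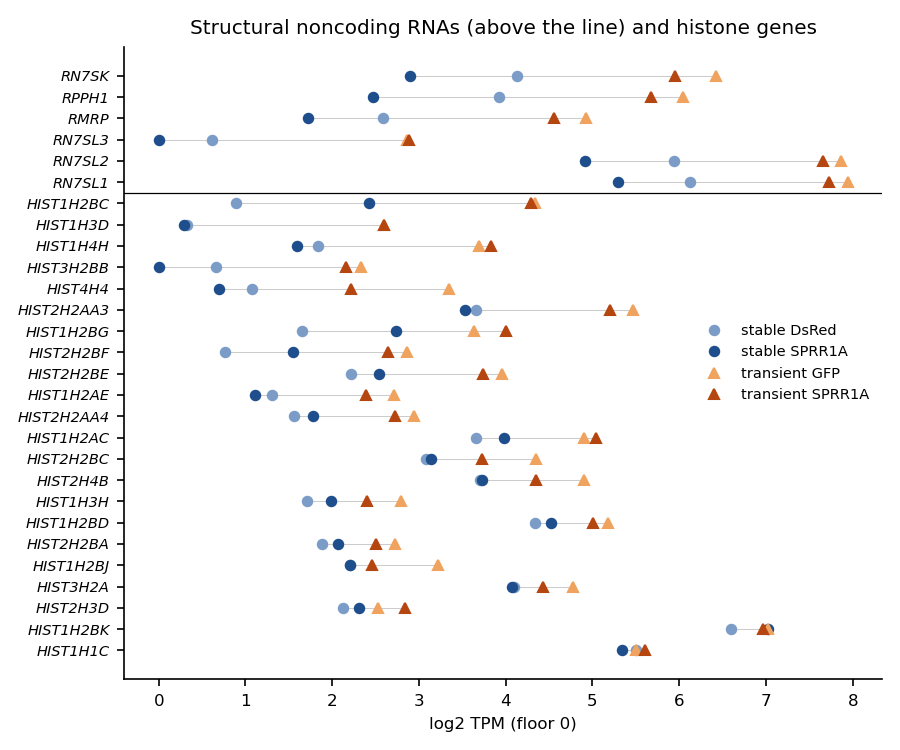
Log2 TPM in the 4 libraries for the 6 structural noncoding RNAs (above the line) and the 22 examined histone genes (below), circles for stable and triangles for transient cells. All 6 structural RNAs and the upper 12 histone genes pass 2-fold in both pairs, while HIST1H2BK and HIST1H1C at the bottom do not.

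Only 27 entities were lower in transient cells in both pairs, 21 of them other than small RNAs, and TFF1 stood apart. TFF1, a secreted trefoil peptide of mucus epithelia and a marker of the classical pancreatic cancer subtype (chr21:42362282-42366535), read 5.35 in stable DsRed and 5.31 in stable SPRR1A, was listed at 0 in transient GFP and read 1.49 in transient SPRR1A cells. MUC20 was the other examined member of the mucin and trefoil list and lay above 0 at 0.51 and 0.35, and 8 of the 14 listed genes were at 0 in all libraries. Of the 6 examined genes of the classical signature TFF1 was the only one called, and AGR2 (0.63 and 0.77) and CEACAM6 (-0.36 and -0.24) leaned in different directions.

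KRT4, a keratin of stratified epithelia, was lower, with 5.05 and 6.07 in stable and 3.80 and 3.68 in transient cells, the widest spread between stable libraries among the 12. It was the called member among 15 keratins, whose medians were -0.06 and -0.13. The abundant simple keratins KRT7 (-0.63 and -0.49), KRT8 (-0.48 and -0.36) and KRT18 (-0.62 and -0.39) lay below 0 and KRT5 (0.58 and 0.28) and KRT17 (0.64 and 0.47) above 0, all short of 2-fold. SPDEF, an ETS factor of secretory epithelial cells, went from 3.68 and 3.31 to 2.09 and 1.97, a 2.77-fold difference.

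SPOCK2, a matrix proteoglycan, was 3.21-fold lower, with 4.68 and 4.51 against 3.03 and 2.80. TPPP3, a tubulin polymerization protein, and FIBCD1, a chitin-binding receptor, were 2.67-fold and 2.60-fold lower. FN1, the matrix protein fibronectin, was lower with 3.62 and 3.47 against 2.64 and 2.29, the called member of 20 matrix genes in this direction. TNNC1 and NPW were low everywhere, at 2.37 or below, and FNDC10, HPDL, TUSC1 and SORCS2 completed the 12 largest differences. CD3EAP, a subunit of RNA polymerase I, had the highest mean level of the lower entities, with 5.71 and 5.77 against 4.52 and 4.56.

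Few adhesion and identity genes were called. No epithelial junction gene of 23 was called, and TJP3 stood at -0.09 and 0.21. Among 15 genes of the epithelial-mesenchymal transition SNAI1, a repressor of CDH1, was higher (1.63 and 1.84 against 3.37 in both transient libraries) and FN1 lower, and CDH1 itself was higher in transient cells, at 7.75 and 7.51 against 7.03 and 7.26, short of 2-fold. None of 9 subtype transcription factors was called, with TP63 at 0.89 and 0.55, GATA6 at 0.56 and 0.61 and SOX9 at 0.07 and 0.03. None of 18 genes of the YAP list was called either, with FJX1 at -0.76 and -0.74 and CYR61 at 0.90 and 0.86. Of 10 integrins ITGA5, the fibronectin receptor chain, was higher with 2.38 and 2.69 against 3.93 and 3.88, and ITGAV lay below the threshold at 0.91 and 0.55. Of 21 proteases and serpins SERPINB2 was called, at 0.07 and 1.30 against 2.56 and 2.33. Nothing is read from single called members of lists this small, beside 2.29% of all examined entities.

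The remaining lists had few or no called members. Of 214 zinc finger genes 7 were higher, the largest being ZNF77 with 1.79 and 2.16 against 3.41 and 3.74, and the list's medians were 0.13 in both pairs. That count, and the 2 higher of 71 read-through entities, are shares close to the 2.29% of all examined entities, and nothing is read from them. Of 20 genes of the basal-like signature SPRR1B and UCA1, a long noncoding RNA, were higher, and the read-through entities were TM4SF19-TCTEX1D2 and FKBP1A-SDCBP2, whose reads overlap those of the single genes. None of 6 metallothionein and zinc transport genes and none of 22 small nucleolar RNA host genes was called.

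Differences were related to the length, GC content and level of the transcripts. By quartile of transcript length, taken from the canonical GENCODE transcript of 98.9% of the examined entities, the median difference went from -0.16 through -0.03 and 0.08 to 0.18 in the control pair, from the shortest to the longest, and from -0.05 to 0.06 in the SPRR1A pair. From the lowest to the highest quartile of GC content it went from 0.21 to -0.13 in the control pair and from 0.06 to -0.03 in the SPRR1A pair. By level it went from 0.22 to -0.14 and from 0.13 to -0.07. The control pair thus carried the wider gradient in each case.

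The called entities did not follow the length gradient. The share higher in both pairs was 3.64% in the shortest quartile and 1.39% in the longest, and their median transcript length was 2174 bases against 3084 for all examined entities. By level the share went from 5.54% in the lowest quartile to 0.706% in the highest. Lower entities had a median GC content of 58.3%, against 48.8% for all examined and 47.5% for the higher ones, and 14 of 26 with a value were in the highest GC quartile. Centring each pair within bins of transcript length left 245 higher and 27 lower entities, 237 and 25 of them the ones called with 1 centre. What part library preparation has in these gradients was not tested.

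**Figure D5:**
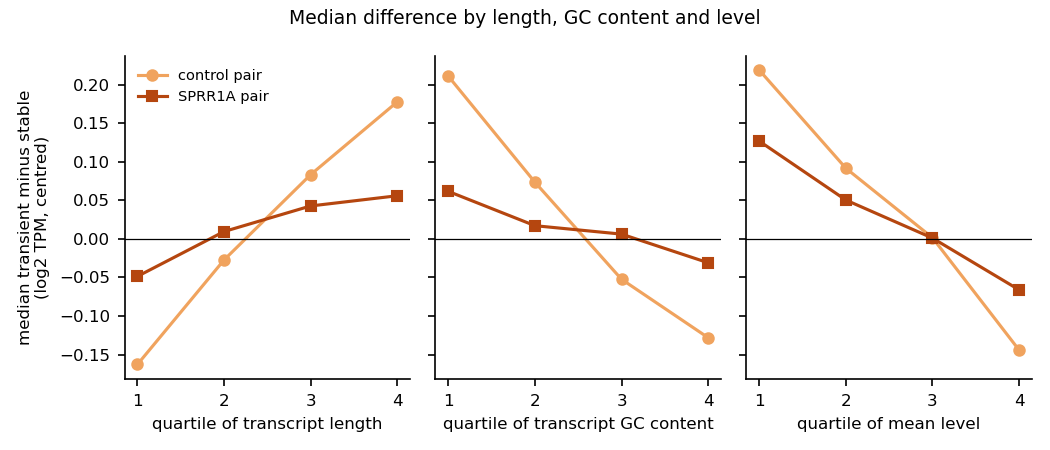
Median centred difference in log2 TPM by quartile of transcript length, GC content and mean level, circles for the control and squares for the SPRR1A pair. The control pair spans -0.16 to 0.18 over length and 0.21 to -0.13 over GC content, and the SPRR1A pair a narrower range in the same directions.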

How the data were processed

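Total RNA was isolated with a phenol-based reagent, treated with DNase and made into stranded, poly(A)-selected libraries that were sequenced as read pairs. Alignment was done by the authors in Strand NGS at its default settings against human transcripts of build hg38, and they deposited 1 table per library with a log2-transformed TPM value for each of 53826 entities, with the gene symbol and Entrez number. The aligner version and the annotation are not given in the sources used here. Values of 0 stand for a TPM of 1 or less, and the TPM above the floor summed to between 998269 and 998474. Since TPM keeps no depth, the number of reads behind a value is unknown and no counting interval is given.

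Groups came from the genotype label. Both pair differences were taken on the deposited log2 scale with no further pseudocount, centred on the median of 9663 entities of log2 TPM of at least 2.32 in all 4 libraries, and called past 2-fold in both pairs. No model or test was fitted, as each condition is 1 library and the libraries of a model differ in insert. Folds are 2 to the power of the mean of both centred pairs, and are not given where a library is at the floor. The procedure was tested on simulated data, drawn from the levels of entities that reached 5 TPM in all 4 libraries, with no floor. Calls that rest on lower levels or on a value at the floor were not covered by that test. Named genes were the 12 largest mean differences in each direction, leaving out small RNAs and read-through entities, the 5 highest levels in each direction, up to 4 called members and 2 members nearest 0 in each of 42 lists, and up to 3 entities that were opposite in the pairs in each direction. Further members were named after their values were seen, and some entities that the rule names are not reported here. The members and lists were chosen with earlier results of these data known. Gene positions and promoter windows came from RefSeq (GRCh38.p14), matched by Entrez number or symbol for 10741 of the 10758 examined entities, and transcript length and GC content from GENCODE 44. The 15 mitochondrially encoded genes of 1 list were at 0 in all libraries. Alternatives changed the centring, the pseudocount (1 and 0.1), the filter, the fold threshold and the rule of agreement. Python 3.11.15, numpy 2.4.6, pandas 2.3.3 and matplotlib 3.10.9 were used.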

Additional observations from a re-analysis of the deposited data

Results flagged for a closer look

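Entities past 2-fold in opposite directions in the pairs numbered 6 with a higher value in the control pair and a lower one in the SPRR1A pair, and 1 with the reverse. The difference between the pairs was not tested. LOC100129931 was listed at 0 in stable DsRed and transient SPRR1A cells and read 4.03 in stable SPRR1A and 3.69 in transient GFP cells. LRRC24 had the same layout, with 2.29 and 2.37 in the middle libraries and 0 in the others. SARM1, an axon degeneration factor, read 1.66 in stable DsRed, 3.61 in stable SPRR1A, 3.50 in transient GFP and 1.10 in transient SPRR1A cells. LIMD1-AS1, LOC100652999 and MIR3687-1 were the other members of the 6, each at 0 in transient SPRR1A cells. The 1 reverse entity was the microRNA precursor MIR4258, at 2.45 in stable DsRed, 0 in stable SPRR1A and 1.20 and 1.14 in transient cells. Of the 7 entities 6 were at 0 in at least 1 library.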

How the results depend on the processing

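The 246 higher and 27 lower entities depended most on the level filter and the fold. Where every library had to reach 5 TPM they numbered 114 and 10, and the single pairs held 210 higher and 36 lower (control) and 135 and 15 (SPRR1A). With a mean TPM of at least 20 they numbered 68 and 3, and the single pairs 108 and 16 and 75 and 6. With no filter the control pair held 133 lower entities and the SPRR1A pair 473 higher and 89 lower. A 1.5-fold threshold gave 699 and 152 entities in both pairs, and a 3-fold threshold 73 and 3. Requiring the mean difference to pass 2-fold with no overlap of the libraries gave 42 lower entities. Under the other alternatives, the 2 added after seeing the data (centring by transcript length, and leaving out histones, structural and small RNAs) included, the counts stayed within 1.5 times. No named gene turned direction. Of 89 named genes past 2-fold in both pairs, 10 missed it with log2(TPM + 1), 7 with no centring and 4 with centring by level. Of 41 list medians, 29 had 1 sign in both pairs under all 6 alternatives of scale and centring. Leaving out a library leaves 1 pair, whose counts stand in the report, and depth is unknown, so differences of entities near the floor are the least certain.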

Other observations

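Several higher entities outside the lists were chosen after their values were seen. AHR, the aryl hydrocarbon receptor, read 3.29 and 3.46 in stable DsRed and SPRR1A and 4.78 and 4.45 in transient GFP and SPRR1A cells, and of the genes it is known to activate, CYP1A1 went from 2.44 and 2.26 to 3.68 and 3.67 and TIPARP from 4.71 and 4.86 to 6.32 and 6.24. CYP1B1, at 0.99 and 0.44, and NQO1, at 0.38 and 0.28, which it is also known to activate, were not called. Other called genes were CCNG2 (1.47 and 1.65 against 3.25 and 2.87), HBP1 (2.95 and 3.11 against 4.82 and 4.77), FBXO32 (1.32 and 1.69 against 3.68 and 3.52) and MXD1 (2.61 and 2.90 against 5.15 and 4.99). PTGS2, the inducible cyclooxygenase, went from 2.72 and 3.05 to 5.20 and 4.96, and IL11 was listed at 0 in both stable libraries and at 2.42 and 2.15 in the transient ones. HSPA6, an inducible heat shock gene outside the chaperone list, was higher at 1.21 and 0.81 against 2.61 and 2.42. No list was fixed for these genes, so no group is described by them.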
